A study of Homo sapiens with 6 samples.

Results

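ATF4 and 9 of its targets or partners in the integrated stress response, namely CHAC1, DDIT3, DDIT4, TRIB3, ATF3, ASNS, SESN2, CEBPB and VLDLR, were followed in nascent RNA of HCT116 cells. These 10 genes were taken from the 22984 gene rows on the sense strand of each library, by symbol. These genes were selected on their RPKM in siGSTO1 against DMSO, so their levels in that comparison are a description of the choice and carry no test. The same DMSO cultures are the control of the other comparisons with DMSO, which are therefore not independent of the choice. Nascent RNA was measured by Bru-seq, in which cells are fed bromouridine and only the RNA made during the pulse is captured and sequenced. HCT116 is an established human colorectal carcinoma line, and every culture was labelled with 2 mM bromouridine for 30 min. Both DMSO cultures were vehicle controls at 0.01% for 4 h. One culture each received siGSTO1, an siRNA against GSTO1, at 10 nM for 24 h by its label, the GSTO1 inhibitor C1-27 at 1 μM for 4 h, C1-27 at 1 μM for 24 h, or C1-14, described as an inactive analogue, at 10 μM for 4 h. Each culture gave 1 library, so only DMSO had a second culture. A non-targeting siRNA and a 24 h DMSO culture were not analysed here. For the 24 h cultures, treatment and time in culture therefore cannot be told apart, nor can the knockdown and the delivery of an siRNA.

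In the integrated stress response, kinases that sense amino-acid shortage, unfolded protein in the endoplasmic reticulum, double-stranded RNA or haem shortage phosphorylate the translation factor eIF2. General protein synthesis then falls while the mRNA of ATF4, a basic leucine zipper transcription factor, is translated more, so that ATF4 is known to be controlled largely at translation. ATF4 binds composite C/EBP-ATF elements and turns on genes for amino-acid supply, for further stress transcription factors and for brakes on growth. Bru-seq reports transcription of the ATF4 gene and of its targets, and reports neither ATF4 protein nor eIF2 phosphorylation.

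Each library held between 18112861 and 36841146 sense counts in genes. Levels are given as RPKM, reads per kb of gene body, with exons and introns together, scaled to the mapped reads of the library. A fold change is the RPKM of a treated culture over the mean of both DMSO cultures. Genes had to be longer than 300 bp, with an average of treated and control RPKM over 0.5, and a difference of 1.4-fold or more was counted. Of 7825 genes, 16.3% were at least 1.4-fold lower in the second DMSO culture than in the first, so the members' folds that differ most from DMSO are also given against either culture alone. The labels do not tie a DMSO culture to a treatment, and the mean of both was used throughout. 4 of the 7 members that could be read showed the same (ATF4, DDIT3, DDIT4 and TRIB3). For siGSTO1, 852 of 8138 genes were higher and 527 lower by this measure, whereas RPKM rescaled with TMM factors gave 561 and 907, with the median of all genes shifted by −0.12 on the log2 scale (−0.15 with DESeq2 size factors). Of 8 epithelial markers, 5 were above 0.5 RPKM in all 6 libraries, and their summed RPKM ran from 15.6 to 34.0. Of 10 markers of other cell types, 8 stayed under 0.1 RPKM in all libraries, CD3E, SFTPC and MYH7 were at 0, and the sum ran from 0.286 to 0.543. In a bulk culture, fewer cells transcribing a gene and less transcription per cell cannot be told apart. GSTO1 itself was at 3.51 and 3.72 RPKM in DMSO and 2.70 in siGSTO1. An siRNA acts on the mature mRNA, so nascent GSTO1 RNA does not check the knockdown.

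The promoters are shown because several of these genes are textbook ATF4 targets, and the elements that ATF4 binds can be looked for in their sequence. RefSeq promoter windows, 250 bases before to 50 bases after a start, were at hand for all 10 genes, with 17 starts in all. Matches are given by gene for the members and by window for the whole set, which are unlike units. The C/EBP-ATF element was searched as TGATGNAAN on both strands. It was in the window of CHAC1, in windows of ASNS and ATF3, and in 3.61% of all 35116 windows. ASNS and ATF3 have 2 windows each, and the match was in that of the most upstream start only. The cyclic AMP response element TGACGTCA was in no member window and in 1.85% of all windows. The antioxidant element TGACNNNGC, to which NRF2 binds, was in windows of TRIB3, CEBPB and VLDLR and in 13.3% of all windows. The 250 bases before the most upstream start of the 3 genes with a C/EBP-ATF match follow, and those of DDIT4, the gene with the second highest fold after siGSTO1, stand beside them without a match. The sequences are from RefSeq, build GRCh38.p14, written 5′ to 3′ along the gene with the C/EBP-ATF match in capitals.
CHAC1, chr15:40953221-40953470, plus strand: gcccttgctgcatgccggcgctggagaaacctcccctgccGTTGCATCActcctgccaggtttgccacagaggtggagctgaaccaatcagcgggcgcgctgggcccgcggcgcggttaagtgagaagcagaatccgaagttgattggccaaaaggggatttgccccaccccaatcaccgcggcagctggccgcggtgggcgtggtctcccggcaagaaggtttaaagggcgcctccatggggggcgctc
ASNS, chr7:97872409-97872658, minus strand: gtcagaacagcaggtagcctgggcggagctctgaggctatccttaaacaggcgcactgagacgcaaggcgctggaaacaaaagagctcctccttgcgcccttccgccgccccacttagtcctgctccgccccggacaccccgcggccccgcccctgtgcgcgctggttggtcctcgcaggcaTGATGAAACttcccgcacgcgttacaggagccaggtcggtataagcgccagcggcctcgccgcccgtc
ATF3, chr1:212565157-212565406, plus strand: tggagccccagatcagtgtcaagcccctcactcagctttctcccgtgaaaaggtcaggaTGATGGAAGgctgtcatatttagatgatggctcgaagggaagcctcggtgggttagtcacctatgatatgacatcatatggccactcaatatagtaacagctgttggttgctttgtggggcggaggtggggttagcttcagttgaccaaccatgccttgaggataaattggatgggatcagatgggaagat
DDIT4, chr10:72273674-72273923, plus strand: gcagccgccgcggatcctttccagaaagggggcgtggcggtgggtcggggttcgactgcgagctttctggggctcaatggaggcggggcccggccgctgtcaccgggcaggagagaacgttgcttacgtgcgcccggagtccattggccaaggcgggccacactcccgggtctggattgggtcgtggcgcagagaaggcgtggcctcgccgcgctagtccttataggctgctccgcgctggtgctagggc
The match began 210 bases before the start of CHAC1, where it lay on the opposite strand (GTTGCATCA). It began 191 bases before the start of ATF3 (TGATGGAAG) and 68 bases before that of ASNS (TGATGAAAC). A match is a description of these letters and not evidence of binding, and its absence says only that the letters are not in the window.

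After siGSTO1 most of the targets stood well above DMSO, VLDLR was not detected and the ATF4 gene itself lay near DMSO. CHAC1, an enzyme that breaks down glutathione, was 30.2-fold higher, and DDIT4, an inhibitor of mTORC1, 13.5-fold higher. ASNS, asparagine synthetase, followed at 5.91-fold, SESN2 at 4.09-fold, DDIT3 at 3.51-fold and TRIB3 at 3.07-fold. Of the 8 members above the RPKM limit, 7 were at 1.4-fold or more, against 10.5% of all genes, and the same 7 passed against each DMSO culture alone, against 6.49% of all genes. None was 1.4-fold lower, against 6.48% of all genes. Over the single DMSO cultures the fold was 10.9 and 17.8 for DDIT4, 3.76 and 4.49 for SESN2, 2.99 and 4.25 for DDIT3, and 2.54 and 3.89 for TRIB3. CHAC1 passed the RPKM limit only through its level in siGSTO1. The choice of members rested on this contrast, so nothing is read from these shares. CHAC1 and DDIT4 ranked 1 and 2 of 8138 genes by fold, ASNS 7, SESN2 14, DDIT3 18, TRIB3 32, CEBPB 201 and ATF4 1712. Around the 1.4-fold limit, CEBPB at 1.88-fold was the nearest member inside and ATF4 at 1.22-fold the nearest outside.

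**Figure D1:**
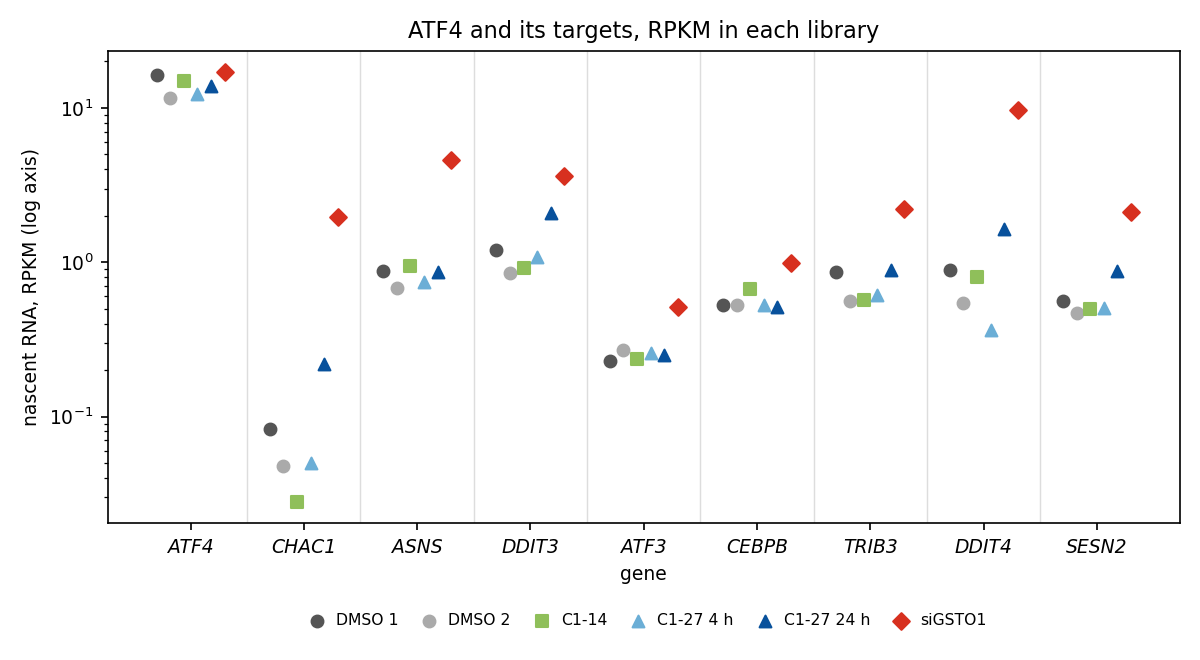
RPKM of 9 of the 10 genes in each of the 6 libraries, on a log axis, with 1 point per culture. The siGSTO1 point is the highest for every gene, by a narrow margin for ATF4 (17.0 against 16.4 in DMSO culture 1) and by far for CHAC1 (1.98 against 0.219 in C1-27 at 24 h).

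ATF4 (chr22:39916569-39918691, plus strand) had the highest level of the group, at 16.4 and 11.7 RPKM in DMSO cultures 1 and 2. It was at 14.9 in C1-14, 12.2 in C1-27 at 4 h, 13.9 in C1-27 at 24 h and 17.0 in siGSTO1. All treated cultures except siGSTO1 lay within the range of the DMSO pair, and siGSTO1 exceeded DMSO culture 1 by only 1.04-fold. The siGSTO1 fold was 1.22 over the DMSO mean and 1.46 over culture 2, with 950 reads in siGSTO1 and 812 and 1010 in DMSO. Rescaled with TMM factors it was 1.13. SMCR7L, the gene that ends 2431 bases upstream on the same strand, was at 0.955-fold in siGSTO1.

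CHAC1 (chr15:41245636-41248717, plus strand) had the lowest level of the 9 genes that gave reads. Its counts were 6 and 6 in DMSO, 3 in C1-14, 6 in C1-27 at 4 h, 31 in C1-27 at 24 h and 160 in siGSTO1. In RPKM these were 0.0832 and 0.0477, 0.0281, 0.0503, 0.219 and 1.98. The 4 cultures kept for 4 h were near the floor of detection, and both 24 h cultures stood above them. The siGSTO1 fold of 30.2 was 23.7 and 41.4 over the single DMSO cultures, and the ratio to the pooled DMSO reads had an exact 95% interval of 18.2 to 64.4 (Clopper-Pearson). Such intervals cover counting error only, and PCR copies may make them too narrow. With 0.1 RPKM added to each value, the fold was 12.5.

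ASNS (chr7:97481429-97501854, minus strand), which makes asparagine from aspartate and glutamine, was at 0.883 and 0.681 RPKM in DMSO. It was at 0.938 in C1-14, 0.744 in C1-27 at 4 h, 0.868 in C1-27 at 24 h and 4.62 in siGSTO1. The 3 compound cultures lay close to DMSO and only siGSTO1 stood apart, with 2480 reads against 422 and 568. Its fold was 5.24 and 6.79 over the single DMSO cultures.

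Among the transcription factors downstream of ATF4, DDIT3 (chr12:57910371-57914300, minus strand) encodes CHOP, which is tied to cell death under prolonged stress. DDIT3 was at 1.21 and 0.848 RPKM in DMSO, 0.918 in C1-14, 1.08 in C1-27 at 4 h, 2.09 in C1-27 at 24 h and 3.61 in siGSTO1. Both 24 h cultures were above all 4 h cultures. ATF3 (chr1:212738676-212794119, plus strand), a stress-induced repressor, was at 0.229 and 0.268 in DMSO, 0.236 in C1-14, 0.258 and 0.250 in C1-27 at 4 and 24 h, and 0.510 in siGSTO1. Its fold in siGSTO1 was 2.05, with 2.23 and 1.90 over the single DMSO cultures, at a mean RPKM under the 0.5 limit in every comparison, so it was not counted. CEBPB (chr20:48807120-48809227, plus strand), a dimer partner of ATF4, was at 0.525 and 0.527 in DMSO, 0.671 in C1-14, 0.529 and 0.510 in C1-27 at 4 and 24 h, and 0.988 in siGSTO1. It rests on 26 to 55 reads per library, and its ratio to pooled DMSO in siGSTO1 had an interval of 1.31 to 2.73. For these 3 factors siGSTO1 was the highest library, and the 24 h C1-27 culture lay within the DMSO pair for ATF3 and just below it for CEBPB.

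TRIB3 (chr20:361308-378203, plus strand), a pseudokinase that restrains ATF4 and AKT, was at 0.865 and 0.564 RPKM in DMSO. It was at 0.567 in C1-14, 0.617 in C1-27 at 4 h, 0.897 in C1-27 at 24 h and 2.20 in siGSTO1. DDIT4 (chr10:74033677-74035797, plus strand) and SESN2 (chr1:28585963-28609002, plus strand) both hold back mTORC1, the kinase complex that drives growth. DDIT4 was at 0.887 and 0.546 in DMSO, 0.804 in C1-14, 0.366 in C1-27 at 4 h, 1.65 in C1-27 at 24 h and 9.70 in siGSTO1. SESN2 was at 0.562 and 0.471 in DMSO, 0.499 in C1-14, 0.504 in C1-27 at 4 h, 0.880 in C1-27 at 24 h and 2.11 in siGSTO1. For both mTORC1 inhibitors the 24 h C1-27 culture lay above every 4 h culture and below siGSTO1, whereas for TRIB3 it was close to DMSO culture 1. In DMSO the 9 genes ran in the order ATF4, DDIT3, ASNS, DDIT4, TRIB3, CEBPB, SESN2, ATF3 and CHAC1. Neighbours from DDIT3 to SESN2 overlapped within 1 SD, with DMSO means of 1.03 ± 0.254 RPKM (SD, n = 2) for DDIT3, 0.782 ± 0.143 for ASNS, 0.717 ± 0.241 for DDIT4, 0.715 ± 0.213 for TRIB3, 0.526 ± 0.00105 for CEBPB and 0.517 ± 0.0639 for SESN2. ATF4, ATF3 and CHAC1 stood apart from their neighbours.

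VLDLR (chr9:2621793-2654485, plus strand), a lipoprotein receptor known to be induced by ATF4, gave 1 and 0 sense reads in DMSO, 2 in C1-27 at 4 h and 0 in the other 3 libraries. A count of 0 allows up to 3 reads, so its transcription was not detectable at this depth in any culture and no fold is given. The opposite strand of VLDLR gave 92 and 82 reads in DMSO, 83 in C1-14, 92 in C1-27 at 4 h, 152 in C1-27 at 24 h and 124 in siGSTO1. Antisense reads were thus 99.5% of all reads there. In antisense RPKM the siGSTO1 library, at 0.1465, was 1.59-fold above the DMSO mean, but the DMSO cultures were far apart, at 0.122 and 0.0626. FLJ35024, a gene on that strand, overlaps VLDLR by 581 bases. The antisense reads of VLDLR were counted from base 2622374 on, past that overlap. At DDIT3 the antisense strand held 22.7% of all reads, from 29 to 86 per library, and MARS, which runs the other way, overlaps the tail of DDIT3 by 68 bases. The antisense reads of DDIT3 were counted from base 57910439 on, past that overlap too. The antisense share was 2.63% or less at each of the other members.

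**Figure D2:**
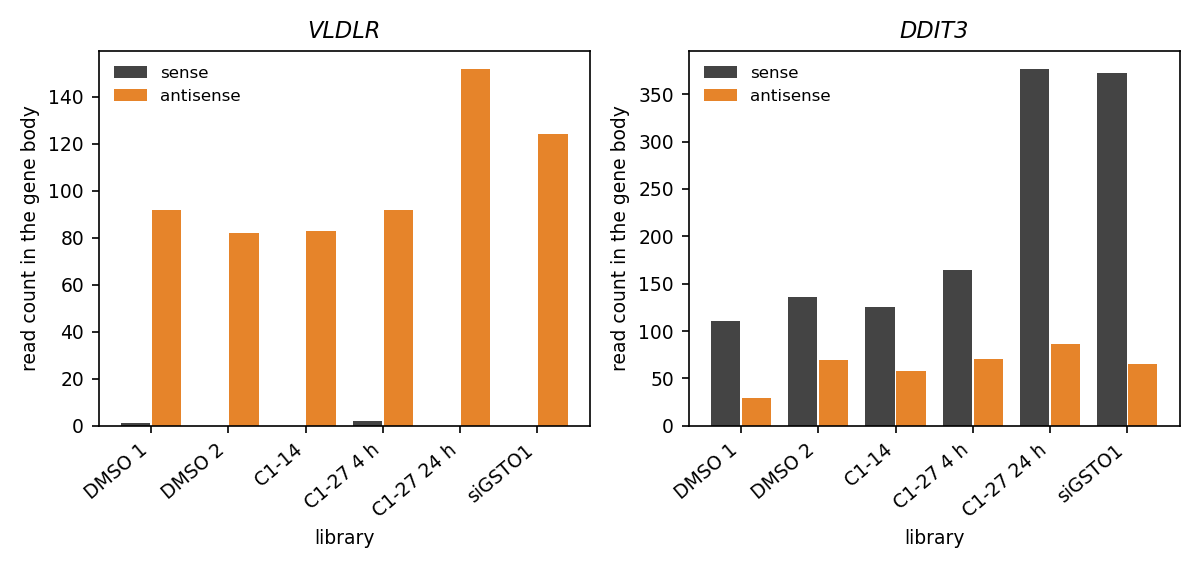
Read counts in the gene bodies of VLDLR (left) and DDIT3 (right) on the sense strand (dark bars) and the antisense strand (orange bars) in the 6 libraries. VLDLR has at most 2 sense reads but 82 to 152 antisense reads per library, while at DDIT3 sense reads exceed antisense reads in all 6.

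C1-27 for 4 h left the group near DMSO, apart from DDIT4, which was at 0.510-fold. 0 of 7 members above the RPKM limit were at 1.4-fold or more, against 0.457% of all genes, and 1 of 7, DDIT4, was at least 1.4-fold lower, against 2.22%. DDIT4 gave 30 reads here against 44 and 47 in DMSO, and the fold was 0.412 and 0.670 over the single DMSO cultures. Against DMSO culture 2 alone, 0 members above the RPKM limit were 1.4-fold lower, and against culture 1 alone 2 were. DDIT4, at 0.670-fold of culture 2, was not counted there because its mean with that culture was under the RPKM limit. By edgeR the log2 fold change of DDIT4 was −0.87 ± 0.735 (SE) with an adjusted p of 1.0. The median log2 fold of the 9 genes with reads was −0.07, beside −0.01 for all genes. In edgeR's quasi-likelihood test, with p-values adjusted over 14431 genes, 0 of 9 members passed, against 0.0208% of all genes higher and 0.0% lower. None had an unadjusted p under 0.05, and DESeq2 also called none.

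After 24 h of C1-27, DDIT3, DDIT4 and SESN2 were at 2.03-, 2.31- and 1.70-fold, and CHAC1 at 3.34-fold on few reads. The other 5 genes lay between 0.970- and 1.25-fold, the highest being TRIB3, at 1.04- and 1.59-fold over the single DMSO cultures. Of 7 members above the RPKM limit, 3 were at 1.4-fold or more, against 3.23% of all genes, and the same 3 passed against each DMSO culture alone, against 1.89%. The DMSO cultures entered the choice of members too, so these shares are not independent of it. Against DMSO culture 2 alone the number was 4, with TRIB3. None was 1.4-fold lower, against 3.49%. DDIT3 was at 1.73- and 2.46-fold over the single DMSO cultures, DDIT4 at 1.87- and 3.03-fold and SESN2 at 1.57- and 1.87-fold. CHAC1 was at 2.63- and 4.58-fold, and its ratio to pooled DMSO reads had an interval of 1.799 to 7.70.

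None of these differences passed the test across all genes. By edgeR the log2 fold change was 1.00 ± 0.422 (SE) for DDIT3, with an adjusted p of 0.809. It was 1.22 ± 0.533 for DDIT4, with an adjusted p of 0.906, and 0.72 ± 0.313 for SESN2, with an adjusted p of 0.876. CHAC1 was at 1.77 ± 0.907, with an adjusted p of 1.00. In all, 0 of 9 members passed, against 0.194% of all genes higher and 0.166% lower. At an unadjusted p under 0.05 edgeR had 3 of 9 (SESN2, DDIT4 and DDIT3), against 4.28% of all genes, and DESeq2 had 2 of 9. Only 1 residual degree of freedom, from the DMSO pair, stands behind these tests, and the spread was largely shared across genes. For ATF4, whose log2 fold change was −0.06, the approximate 95% interval ran from −0.60 to 0.49. The interval is not adjusted over all genes, so differences of that size, and larger ones, could be missed by the adjusted test.

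**Figure D3:**
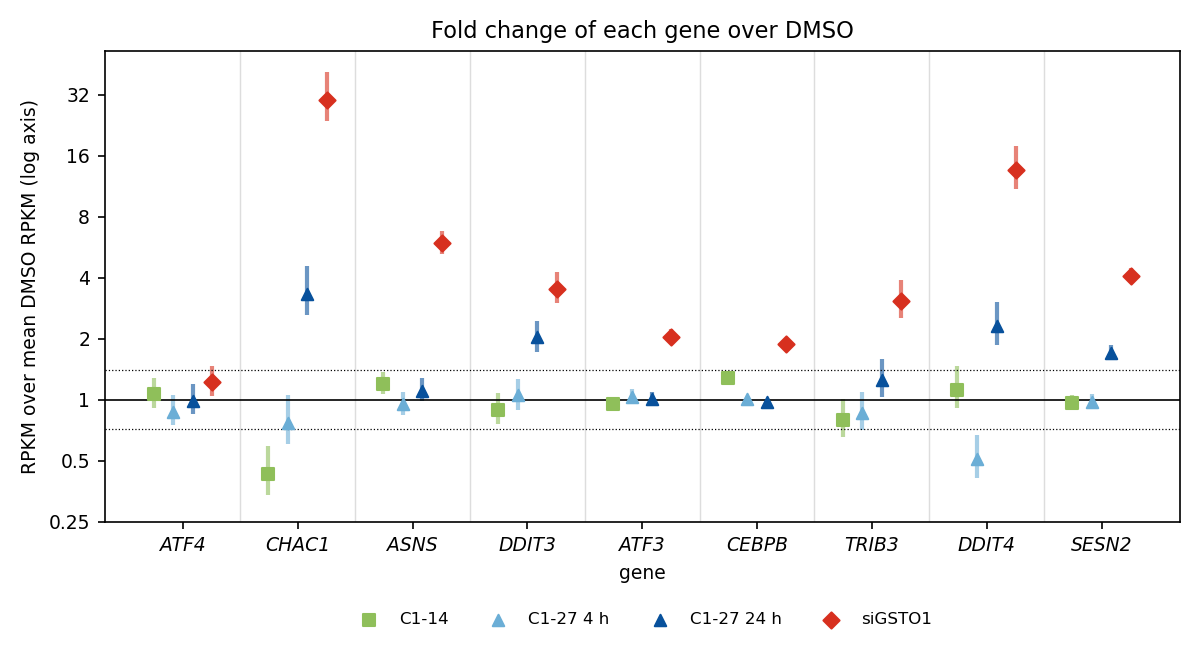
Fold change over the mean of both DMSO cultures for 9 genes and 4 treated cultures, on a log axis. Vertical bars span the folds over DMSO culture 1 and culture 2 alone, the solid line marks no difference and dotted lines mark 1.4-fold in either direction. ATF4 lies near the solid line in all 4 cultures, while DDIT4 runs from 0.510-fold in C1-27 at 4 h to 13.5-fold in siGSTO1.

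Between the C1-27 cultures, DDIT4 was 4.52-fold higher at 24 h than at 4 h and ranked 2 of 7784 genes. DDIT3 was 1.93-fold, SESN2 1.75-fold and TRIB3 1.45-fold higher. These 4 of 7 members were at 1.4-fold or more, against 5.16% of all genes. ATF4, ASNS, ATF3 and CEBPB lay between 0.964- and 1.17-fold, and CHAC1 was at 4.34-fold with a counting interval from 1.79 to 12.7. The edgeR log2 fold change of DDIT4 was 2.09 ± 0.697 (SE), with an unadjusted p of 0.00271 and an adjusted p of 0.482. 0 of 9 members passed, against 0.0416% of all genes higher and 0.0832% lower. At an unadjusted p under 0.05 edgeR had SESN2 and DDIT4, against 2.90% of all genes, and DESeq2 had 1 of 9. The 4 h and 24 h values rest on 1 culture each.

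C1-14 left the group near DMSO. Of 7 members above the RPKM limit, 0 were 1.4-fold higher, against 3.71% of all genes, and 0 were 1.4-fold lower, against 1.01%. The nearest to the limits were CEBPB at 1.28-fold, ASNS at 1.20-fold and TRIB3 at 0.793-fold. Over single DMSO cultures, DDIT4 was at 1.47-fold of culture 2 and TRIB3 at 0.655-fold of culture 1. CHAC1 gave 3 reads, a ratio to DMSO of 0.429 with a counting interval from 0.0838 to 1.72 for the pooled reads. In edgeR's test 0 of 9 members passed, against 0.132% of all genes higher and 0.00693% lower, and none had an unadjusted p under 0.05. C1-27 and C1-14 were given at 1 and 10 μM, so their values are only set side by side. At 4 h, DDIT4 was at 0.366 RPKM with C1-27 and 0.804 with C1-14, CEBPB at 0.529 and 0.671, and ASNS at 0.744 and 0.938. DDIT3 was at 1.08 and 0.918, TRIB3 at 0.617 and 0.567, and SESN2 at 0.504 and 0.499.

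The 24 h cultures could be set against each other without DMSO. siGSTO1 exceeded 24 h C1-27 by 9.03-fold at CHAC1, 5.86-fold at DDIT4 and 5.33-fold at ASNS. The ratio was 2.45 at TRIB3, 2.40 at SESN2, 2.04 at ATF3, 1.94 at CEBPB, 1.73 at DDIT3 and 1.23 at ATF4. Counting intervals of all 9 ratios lay above 1, the lowest being 1.13 to 1.34 for ATF4. They leave out the spread between cultures, since each side is 1 culture. At ATF4 the DMSO cultures alone, at 16.4 and 11.7 RPKM, differed by more than this ratio. Of 8 members above the RPKM limit, 7 were at 1.4-fold or more, against 8.73% of all genes. The siGSTO1 library enters this ratio too, so it is no test independent of the choice. ASNS was at 4.62 RPKM in siGSTO1 and 0.868 in C1-27, the latter within the DMSO pair.

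Of 14 genes for the eIF2 kinases and their regulators, eIF2 and its exchange factor eIF2B, which stand upstream of ATF4, 0 differed by 1.4-fold or more in any of the 4 treated cultures, although rescaling with TMM factors put 2 of them lower in siGSTO1 (EIF2B3 and GCN1L1) and 1 lower in C1-27 at 24 h (EIF2B3). DESeq2 size factors put 3 lower in siGSTO1. By edgeR 0 of 14 passed in any culture, with 2 at an unadjusted p under 0.05 in siGSTO1 and 1 in C1-27 at 24 h, and DESeq2 called 0. Their median log2 fold in siGSTO1 was −0.13, or −0.24 with TMM factors. EIF2AK3, which encodes the endoplasmic reticulum kinase PERK, was at 0.624 and 0.564 RPKM in DMSO, 0.772 in C1-27 at 24 h and 0.821 in siGSTO1. It rests on 68 to 165 reads per library. Over its whole span (chr2:88856259-88927094) these would give a lower RPKM, so its level refers to a shorter stretch than the gene body. EIF2AK4, which encodes the amino-acid sensor GCN2, was at 1.13 and 1.22 in DMSO and 0.942 in siGSTO1. PPP1R15A, the stress-induced phosphatase subunit that reverses eIF2 phosphorylation, was at 3.33 and 2.13 in DMSO, 2.12 in C1-27 at 24 h and 2.69 in siGSTO1. Phosphorylation was not measured, so these levels do not bear on kinase activity.

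Other lists around the pathway were drawn up with earlier results of these data known, and their counts are descriptions beside the share of all genes. By edgeR, 3.69% of all 14431 genes were higher and 1.21% lower after siGSTO1. Of 19 other ATF4 targets tested, 8 rose (GDF15, JDP2, SLC7A11, PCK2, GPT2, KLHL24, NDRG1 and BBC3) and 0 fell. Among the 10 whose mean DMSO RPKM was above 0.5, so that the level in siGSTO1 admitted none, the median log2 fold was 0.58, beside −0.02 over all 7825 such genes. The 12 p53 targets above the same level had a higher median, 0.80, so the rise was not particular to the ATF4 targets. GADD45A and TNFRSF10B are in both of these sets, which are therefore not separate. Of 11 amino-acid and one-carbon enzymes, 4 rose (PHGDH, PSAT1, GPT2 and PCK2) and 0 fell. Of 20 cytosolic aminoacyl-tRNA synthetases, which charge tRNAs, 5 rose (AARS, CARS, GARS, MARS and SARS) and 0 fell. With DESeq2 these lists had 6, 2 and 1 genes higher and 0 lower, and RLE scaling gave 8, 4 and 4.

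**Figure D4:**
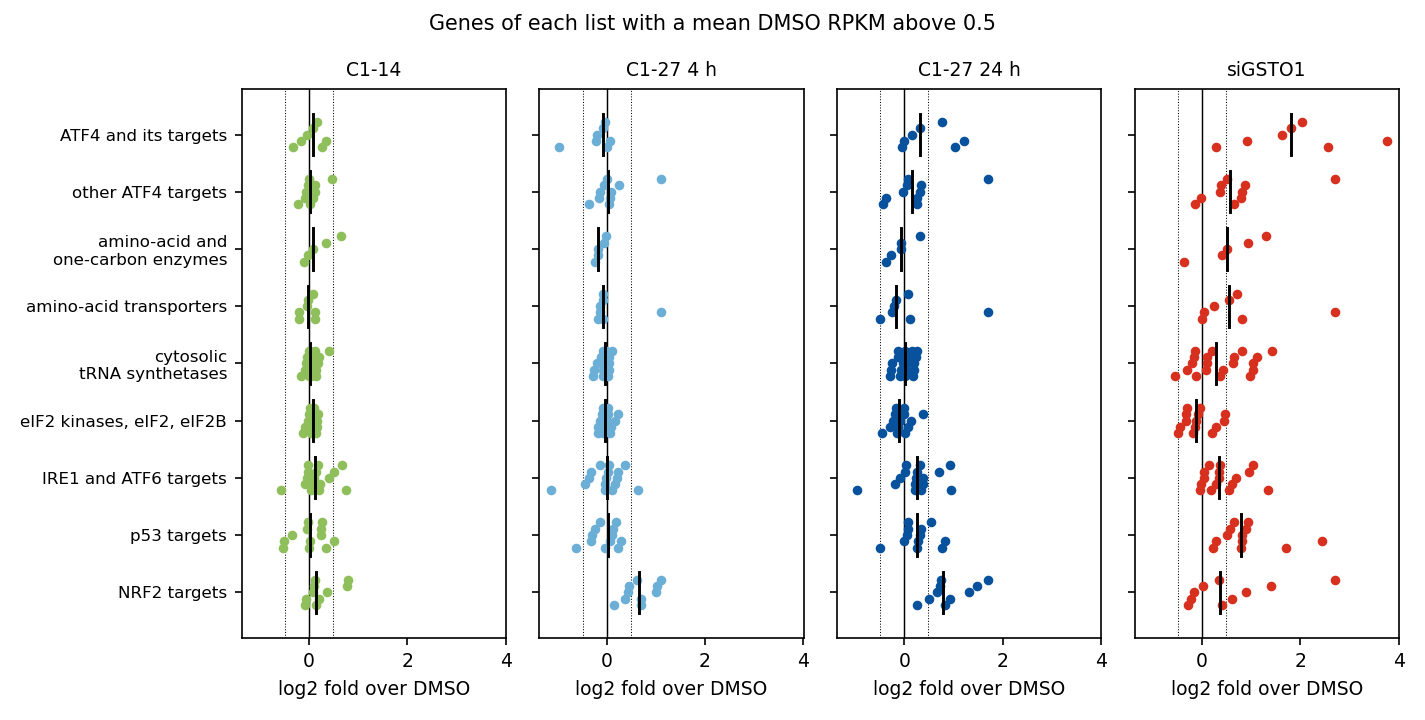
Log2 fold over the DMSO mean for the genes of 9 lists whose mean DMSO RPKM was above 0.5, the same genes in each of the 4 panels, with 1 panel per treated culture. Each point is a gene, the short black line is the median of the list and dotted lines mark 1.4-fold. ATF4 and its targets were selected on siGSTO1, and CHAC1 and ATF3 are below the level limit. The median of the other ATF4 targets is 0.58 after siGSTO1 and 0.16 after 24 h of C1-27, and that of the NRF2 targets is 0.37 and 0.79. That of the p53 targets is 0.80 and 0.27. Some genes are in several lists.

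The named genes that rose after siGSTO1 include those for cystine import and serine synthesis. SLC7A11, the cystine transporter, was at 0.562 and 0.540 RPKM in DMSO, 0.603 in C1-14, 1.19 and 1.78 in C1-27 at 4 and 24 h, and 3.62 in siGSTO1. Its edgeR log2 fold change in siGSTO1 was 2.60 ± 0.238 (SE, adjusted p = 7.49e-24). It also rose in C1-27 at 4 h (1.14 ± 0.241, adjusted p = 0.0105) and at 24 h (1.64 ± 0.238, adjusted p = 1.98e-08). By these edgeR calls SLC7A11 was the 1 gene of the 19 other ATF4 targets that passed in C1-27. At 4 h neither RLE scaling nor DESeq2 called any of the 19, and at 24 h they called 2 and 1. SLC7A11 is a target of both ATF4 and NRF2. PHGDH, the first enzyme of serine synthesis, was at 0.626 and 0.370 in DMSO, 0.711 in C1-27 at 24 h and 1.52 in siGSTO1, a log2 fold change of 1.52 ± 0.296 (adjusted p = 4.12e-05). PSAT1, the next enzyme, was at 2.24 and 1.76, 2.49 and 4.90, with 1.19 ± 0.239 (adjusted p = 8.92e-05). CARS, the cysteinyl-tRNA synthetase, was at 0.737 and 0.457, 0.708 and 1.61, with 1.34 ± 0.255 (adjusted p = 2.61e-05). PHGDH, PSAT1 and CARS were nearer to DMSO with 24 h of C1-27 than with siGSTO1. The amino-acid transporter list had 2 of 10 higher by edgeR (SLC7A11 and SLC1A4) and 1 by DESeq2, and SLC38A2 was at 1.76-fold with an adjusted p of 0.0993.

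Among the paralogues of the members that were examined, JDP2 and SESN3 rose after siGSTO1, 2 of 12 tested, and 0 fell. DESeq2 also called 2. SESN3 was at 0.0684 and 0.104 in DMSO and 0.310 in siGSTO1, below the RPKM limit. CHAC2, which shares the activity of CHAC1, was at 0.970 and 1.26 in DMSO and 1.06 in siGSTO1. The glutathione-degrading pair thus differed, with CHAC1 30.2-fold and CHAC2 0.953-fold over DMSO.

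Genes of neighbouring stress programmes also changed. Of 18 targets of the IRE1 and ATF6 arms of the unfolded protein response, 2 rose after siGSTO1, namely HERPUD1 (2.53-fold, adjusted p = 0.00170) and SEC24D (1.99-fold, adjusted p = 0.0128). DESeq2 called 1 of the 18. SEC24D was also higher in C1-27 at 24 h (1.97-fold, adjusted p = 0.0482), a call that neither RLE scaling nor DESeq2 kept. XBP1, the factor that IRE1 splices, was at 1.86 and 1.84 RPKM in DMSO, 3.50 in C1-27 at 24 h and 3.61 in siGSTO1, without passing the test in either (adjusted p = 0.571 and 0.143). Of 16 p53 targets other than SESN2, 5 rose after siGSTO1 (CDKN1A, GDF15, BBC3, RRM2B and BTG2) and 0 fell, against 3 by DESeq2 and 4 with RLE scaling. CDKN1A, the cell cycle inhibitor p21, was at 1.18 and 1.32 in DMSO, 2.22 in C1-27 at 24 h and 6.79 in siGSTO1 (adjusted p = 2.37e-13). SESN2, GDF15 and BBC3 are known targets of both p53 and ATF4, and which factor moved them was not tested. Of 13 NRF2 targets, 2 rose in C1-27 at 4 h (OSGIN1 and SLC7A11), 4 at 24 h (NQO1, OSGIN1, SLC7A11 and FTL) and 2 in siGSTO1 (SLC7A11 and FTL). DESeq2 called 0, 2 and 1 of them. Over all genes edgeR had 0.0208% higher at 4 h and 0.194% at 24 h. OSGIN1 was at 0.359 and 0.368 RPKM in DMSO, 1.33 and 1.58 in C1-27 at 4 and 24 h, and 0.726 in siGSTO1. Of 16 genes tied to mTORC1 and growth, 0 passed edgeR's test in any culture, 0 had an unadjusted p under 0.05 and DESeq2 called 0. Of 7 epithelial markers tested, ELF3 rose after siGSTO1 (0.323 and 0.355 RPKM in DMSO, 1.28 in siGSTO1, adjusted p = 0.00638), a call that DESeq2 did not keep. KRT8 and KRT18, keratins of simple epithelia, were at 0.732- and 0.605-fold there without passing (adjusted p = 0.279 and 0.126). With C1-27 at 24 h, KRT8 fell (0.506-fold, adjusted p = 0.0428), which neither RLE scaling nor DESeq2 kept, while KRT18 was at 0.599-fold and KRT19 at 0.610-fold (adjusted p = 0.660 and 0.886). The part of these markers in the results was not tested.

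Across the 6 libraries, the profile shared by the group was that of siGSTO1 against the rest. Pearson's r of a member with the mean of the other 8 was 0.99 for CHAC1 and SESN2, 0.98 for DDIT4 and TRIB3, 0.96 for ASNS, 0.93 for DDIT3, 0.91 for ATF3, 0.84 for CEBPB and 0.66 for ATF4. These are descriptions over 6 points in which 1 library, siGSTO1, sets most of the value. The members were chosen on that library against DMSO, so the shared profile and the high r follow from the choice. Among 7906 other genes above the level limit, ZSCAN2 (r = 0.998), CALCOCO2 (0.997), TUBE1 (0.997), CSRNP2 (0.996) and PSAT1 (0.996) had the profile most like the mean of the group. The siGSTO1 folds of these 5 ran from 1.4 for CSRNP2 to 2.45 for PSAT1, so a like profile did not go with a like size of difference, and the folds of all 5 in C1-27 at 24 h lay between 1.06 and 1.28.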

How the data were processed

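Nascent RNA (Bru-seq) of 6 HCT116 cultures was analysed. The authors deposited 1 table per library with estimated counts of reads in each gene body, introns included, 1 row for each strand, partly not whole. The deposited signal is that count per base and was not used. The deposited RPKM values are the authors' counts per kb, scaled to the mapped reads of each library (23388424 to 46017051). The submitters' processing notes name CASAVA 1.8.2, TopHat 1.4.1, Bowtie 0.12.8, bedtools 2.16.2 and build hg19, with no order. Gene positions are as in the files. The RPKM filter and the 1.4-fold limit are those of the study's methods.

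Members and lists were chosen with earlier results of these data known. Named genes were all members, GSTO1, up to 4 genes per list and comparison with the largest fold past 1.4 against each DMSO culture, genes called by the test where counted, the 5 genes most alike in profile, and neighbours of members on either strand (SMCR7L, MARS and FLJ35024). A few genes were named after their values had been seen (EIF2AK3, EIF2AK4, PPP1R15A, CHAC2, SESN3, GADD45A and TNFRSF10B). One gene of the paralogue list is not reported here. p-values rest on the spread between the DMSO cultures, which may be technical. edgeR's median prior degrees of freedom were infinite, so most genes were tested against a spread shared across genes and not against their own.

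Counts were rounded and 14431 genes above 300 bp with 10 or more counts in 2 or more libraries were fitted with edgeR 4.0.16 in R 4.3.3 (TMM, quasi-likelihood, 5 groups, 1 residual degree of freedom, Benjamini-Hochberg adjustment). DESeq2 1.42.0 was the alternative. Approximate 95% intervals are log2 fold changes with normal limits. Scripts were tested on simulated data. Python 3.11.15, pandas 2.3.3, scipy 1.17.1 and matplotlib 3.10.9 were used.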

Additional observations from a re-analysis of the deposited data

How the results depend on the processing

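Of 180 alternative values of member folds, 164 moved by less than the DMSO spread, and 16 by more. In 19 of them the fold crossed 1, 16 of these when a DMSO culture was left out, none for siGSTO1 and all for reported folds between 0.769 and 1.12. Of 198 alternative edgeR log2 values of members, 6 moved, all of CEBPB, whose DMSO cultures were nearly equal, and 18 changed sign, all for reported values between −0.25 and 0.25. The number of members at 1.4-fold or more after siGSTO1 stayed within 1.5 times under all alternatives. For C1-27 at 4 h, the number at least 1.4-fold lower ranged from 0 to 2 when 1 DMSO culture was left out (0 without culture 1, 2 without culture 2) and was 0 with a mean RPKM above 1. Where it was 0, DDIT4 had dropped under the RPKM limit, so its fold was not counted. For C1-14, the number higher was 1 without DMSO culture 1 and 0 without culture 2, the number lower was 1 without culture 2 and 0 without culture 1, and it was 1 with no RPKM filter. The median log2 fold of members in C1-27 at 24 h was 0.33, but 0.67 without DMSO culture 1, 0.05 without culture 2 and 1.02 with a mean RPKM above 1, where fewer members remain. In the 4 tested comparisons 0 members passed under RLE scaling, DESeq2, no count filter or edgeR's legacy fit, which was added after the data had been seen. Counts over all genes moved by more than 1.5 times in 39 of 88 alternative values. Without DMSO culture 1, C1-27 at 4 h had 31 genes lower, and without culture 2 it had 969, against 170. For siGSTO1, 1381 genes were higher without culture 1, 494 with DESeq2 size factors and 4557 with no RPKM filter, against 852. DESeq2 called 10 genes higher and 8 lower in C1-27 at 24 h, against 28 and 24 by edgeR, and 2 and 3 between the C1-27 cultures, against 6 and 12. Under DESeq2, C1-14 had 2 and 0, against 19 and 1, and C1-27 at 4 h had 0 higher, against 3. The cause was not tested. No paired analysis was possible because the treated groups have 1 culture each and the labels tie no DMSO culture to a treatment. Depth limits CHAC1 outside siGSTO1 and VLDLR in all libraries.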
